A study of Mus musculus with 2 samples.

Results

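Muscle satellite cells were found in the ear skin of both samples by their own transcripts. A cell was taken as a satellite cell when it held at least 2 unique molecular identifiers (UMIs, each standing for 1 captured mRNA molecule) of *Myod1*, *Pax7*, *Myf5*, *Cdh15* and *Chodl* together, with at least 2 of these 5 genes found, and no UMI of the leukocyte gene *Ptprc* or the fibroblast gene *Pdgfra*. This gave 201 of the 23878 cells kept, 81 of 12213 in the control library and 120 of 11665 in the library of allergic contact dermatitis (ACD).

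Single cells from ear skin of male ICR mice aged 7 to 8 weeks were profiled by droplet-based 3' RNA sequencing, with 1 healthy control library and 1 ACD library. In the ACD group, 1.0% 2,4-dinitrofluorobenzene (DNFB), a protein-reactive hapten, was painted on the dorsal skin, the ears were challenged with 0.2% DNFB on day 6, and ear skin was taken 60 hr later, while the control ears carried no contact allergy. The tissue was digested with collagenase D and DNase and dead cells were removed, and the number of mice behind each library is not given in the sources used here. With 1 library per condition no test of ACD against control is possible, so the intervals below are exact 95% intervals that cover counting error only, and differences between mice, digestions or libraries cannot be told apart from the condition.

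Satellite cells are the stem cells of skeletal muscle. They lie between the muscle fibre and its basement membrane, are held in a resting state by Notch signals, and carry the paired-box factor PAX7. When activated they express the myogenic factors MYF5 and MYOD, and with MYOG (myogenin) they leave the cell cycle and differentiate into fibres. The mouse ear carries small auricular muscles of the head type, which develop from the pharyngeal arches and use regulators such as TBX1, TCF21, MSC and ISL1, where muscle of the trunk and limbs develops from somites through PAX3. Skeletal muscle has little MHC (the antigen-presenting molecules) at rest, and interferon gamma (IFNγ), a cytokine of T cells and NK cells, induces MHC and its loading machinery in most cell types.

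Because the 5 genes of the gate chose the cells, their levels only describe the choice. The control satellite cells held 131 UMIs of *Myod1*, 131 of *Pax7*, 66 of *Myf5*, 62 of *Cdh15* and 180 of *Chodl*, and the ACD satellite cells held 178, 189, 149, 122 and 394. The cells held from 2 to 18 UMIs of the 5 genes in the control (median 6) and from 2 to 31 in ACD (median 7.5). At the edge of the gate, 9 control and 4 ACD cells entered with exactly 2 UMIs. Just outside it, 22 control and 13 ACD cells had 2 or more UMIs of a single gene, mostly *Chodl* (18 and 11 cells), and 13 control and 11 ACD cells met the gate but held *Ptprc* or *Pdgfra*. Both *Pax7* and *Myod1* were found in 31 control and 47 ACD cells, *Pax7* alone in 29 and 45, *Myod1* alone in 16 and 15, and neither in 5 and 13.

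The satellite cells were shallower than the cells around them, with medians of 4100 UMIs (control) and 4983.5 (ACD) against 6883.5 and 7495 in the other kept cells of the same libraries. Their median share of mitochondrial UMIs was 4.09% and 4.27%, against 2.64% and 2.70% in the other cells. The libraries shared 50 cell barcodes, and 0 of these were satellite cells in both. Satellite cells made up 0.663% of the control cells (exact interval 0.527 to 0.824) and 1.03% of the ACD cells (0.854 to 1.23), a log2 ratio of 0.63 (0.21 to 1.06). Among cells without *Ptprc*, whose number was 11242 in the control and 7476 in ACD, the shares were 0.721% and 1.61%, a log2 ratio of 1.16 (0.74 to 1.58). Digestion, capture and the depth of the cells, on which reaching the 2 UMIs of the gate depends, also set such shares. Their part was not tested.

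The label was checked on genes outside the gate. In both libraries the satellite cells carried muscle genes at levels well above all other kept cells. Of 2620 genes with at least 50 UMIs over the satellite cells of both libraries, 182 (6.95%) were at least 2-fold higher than in the other cells in both, with 10 UMIs per 1000000 added to each level (the level is a gene's UMIs per 1000000 UMIs of the summed cells). Among the 15 genes with the highest such ratios outside the gate were *Tcf21*, *Nppc*, *Gpx3*, *Asb5*, *Pcdh17*, *Pde1c*, *Mylk2*, *Tubb2b*, *Flnc*, *Rapsn*, *Fam132b*, *Jsrp1* and *Tnnt1*. *Rapsn* clusters acetylcholine receptors at the neuromuscular junction, *Flnc* is the muscle filamin, *Mylk2* the myosin light chain kinase of skeletal muscle, *Tnnt1* the troponin T of slow fibres, and *Jsrp1* a protein of the sarcoplasmic reticulum. Since these cells were chosen on their own counts, the ratios are given as a description.

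**Figure D1:**
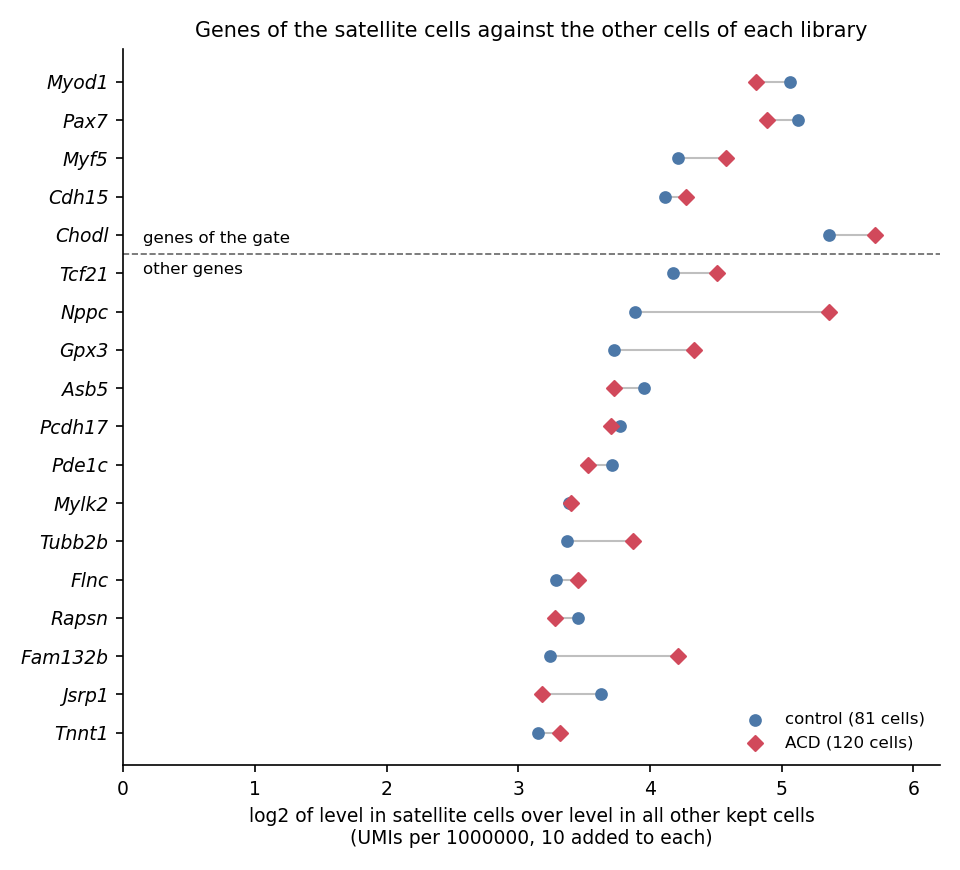
The log2 ratio of the level in satellite cells over that in all other kept cells of the same library (UMIs per 1000000, 10 added), for the 5 genes of the gate and 13 of the 15 other genes highest in both libraries, with control as circles (81 cells) and ACD as diamonds (120 cells). All 18 genes lie above a ratio of 3 in both libraries, and *Nppc* shows the widest gap between them, from 3.89 in the control to 5.36 in ACD.

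*Gpx3* (ENSMUSG00000018339; GRCm38, chromosome 11, 54902453 to 54910377), the secreted glutathione peroxidase, had UMIs in 79 of the 81 satellite cells from the control and 119 of the 120 from ACD. Each cell held a median of 19.5 *Gpx3* UMIs per 10000 in the control (range 0 to 55.6) and 19.2 in ACD (0 to 68.2). The distributions overlapped almost throughout, and the log2 ratio of ACD over control was 0.11 (−0.02 to 0.25). *Gpx3* was not limited to these cells, since it was found in 15.8% of the control and 20.8% of the ACD endothelial cells. Over both libraries it had 89 UMIs in endothelial cells, 1445 in pericytes and 11327 in fibroblasts, classes of different size.

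Regulators of head muscle were found at different levels, and those of trunk and limb muscle were at or near 0. *Tbx1* was scarce, with at most 1 UMI per cell, in 5 of 81 control and 7 of 120 ACD cells. *Tcf21*, a basic helix-loop-helix factor of branchial muscle precursors, had 65 UMIs in 39 control cells and 143 UMIs in 61 ACD cells, with 0 endothelial and 0 pericyte cells holding it in either library. *Isl1*, a factor of the second heart field and branchial muscle, had 24 UMIs in 18 control and 76 UMIs in 49 ACD cells, a log2 ratio of 0.87 (0.19 to 1.60). At a common depth of 2000 UMIs per cell, which left out 2 control cells and 1 ACD cell, the share with an *Isl1* UMI went from 13.9% to 20.2%, against 22.2% and 40.8% without thinning. *Msc*, the factor musculin, had 20 and 33 UMIs. Of the 8 head muscle genes 5 had enough UMIs, all 5 at least 2-fold above the other cells in both libraries. None of the 5 was past 2-fold between ACD and control, and their median log2 ratio was 0.33 against −0.08 over all 2620 genes.

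Of 10 genes of trunk and limb origin, 8 had no UMI in the satellite cells of either library, among them *Pax3*, *Lbx1* and 6 *Hox* genes, and the 10 together had 0 UMIs in the control and 3 in ACD. Of all 27933 genes, 15049 had no UMI in the satellite cells either, so a count of 0 is common here. In the other cells of the same libraries these 10 genes summed to 33.7 and 39.4 UMIs per 1000000. Only 3 of the 10 had at least 50 UMIs there, so only part of the list was shown to be detectable in this tissue.

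Mature fibre genes were scarce. The 20 genes of the list, from *Acta1* and *Ckm* to the fast myosins, summed to 78 UMIs in the control and 108 in ACD, none reached 50 UMIs, and *Myh2*, *Myh4*, *Pvalb* and *Myoz1* were at 0 in both. *Myog* was found in 2 control cells and 0 ACD cells. A single control cell with 13047 UMIs held 63 of the 70 *Myog* UMIs and all 60 UMIs of *Actc1*, the cardiac actin of differentiating muscle. Against the limit that a count of 0 allows (3 counts over the ACD satellite cells), *Myog* was at least 40.4-fold lower in ACD and *Actc1* at least 34.6-fold lower, and both ratios rest on that 1 cell.

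Markers of other cell types were present at different levels. The 8 endothelial genes had 1 UMI in each library, with 6 of 8 at 0 in both. The 10 fibroblast genes summed to 3808 UMIs per 1000000 in the control and 3205 in ACD, against 36801 and 17997 in the other cells, with *Pdgfra* at 0 by the gate. The 10 cartilage genes summed to 987 and 527 UMIs per 1000000, with *Matn1* and *Matn3* at 0 in both, and the 9 Schwann cell genes to 812 and 352.

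The 10 genes of pericytes and vascular smooth muscle moved with ACD, from 563 to 787 UMIs per 1000000, against 1171 and 1204 in the other cells, with 2 genes at 0 in the control and none in ACD. *Tagln*, an actin-binding protein of smooth muscle, had 37 UMIs in 18 control cells and 141 UMIs in 37 ACD cells and was past 2-fold (log2 1.14, 0.61 to 1.70), and a single ACD cell held 39 of them. *Acta2*, the smooth muscle actin, had 154 UMIs in 18 control and 221 UMIs in 38 ACD cells, a log2 ratio of −0.27 (−0.57 to 0.04), and was at 1.16 (10 UMIs per 1000000 added) without the top cell of each library, since 1 control cell held 118 of its UMIs. *Rgs5*, a pericyte gene, had 3 and 35 UMIs, 30 of the 35 in 1 cell. The part of these genes in the results below was not tested beyond leaving out cells with markers of another type. The 11 immune genes summed to 83.1 and 265 UMIs per 1000000 (31 and 171 UMIs), with *Ptprc* (by the gate) and *Lyz2* at 0 in both. *Cd74*, an MHC class II gene that is also in the IFNγ list, held 1 of the 31 and 135 of the 171 UMIs. The higher sum in ACD thus came from *Cd74*. Haemoglobin genes, which only free RNA or red cells should give, stood at 131 and 93.0 UMIs per 1000000 in the satellite cells and at 3715 and 6764 in the other cells. In all, 6 control cells and 9 ACD cells held at least 2 UMIs and 2 genes of another type's short marker set (Schwann, melanocyte, chondrocyte, keratinocyte or pericyte), and their part in the results below is given where they matter.

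The comparison of ACD with control within the satellite cells was led by interferon-inducible genes. Of the 2620 genes, 48 (1.83%) were at least 2-fold higher in ACD and 25 (0.954%) at least 2-fold lower. The median log2 ratio was −0.08, and 90% of the genes lay between −0.69 and 0.65. Of the 42 genes of the IFNγ list, 39 had a UMI, 21 had enough UMIs and 16 were at least 2-fold higher. The minimum favours genes that are high in 1 group, since 12 of the 21 reached it only through their ACD counts, so the median of the 21 (log2 2.20) only describes them. Chosen by the control level instead, as the genes that would reach 50 UMIs if ACD stood at the control level, 9 IFNγ genes remained, with log2 ratios between 0.39 and 2.80 and a median of 1.40 against −0.15 over all 2645 such genes. Of these 9, *B2m*, *H2-K1*, *H2-D1*, *H2-Q4* and *Psme1* were at least 2-fold higher, and over all 2645 genes 18 (0.681%) were. With no minimum, the level was above control in ACD for all 39 genes with a UMI, and for 6401 of the 12884 genes with a UMI in all. Of the 42 IFNγ genes, 11 had no UMI in the control, and 3 of these had none in ACD. The rest of these 11 are among the 39 and could only come out above control. With *Isg15* and *Bst2* from the antiviral list, 18 of the 48 higher genes belonged to the interferon lists. All 18 stayed past 2-fold when each gene lost the cell with most of its UMIs in each library. The same held for 40 of all 48 higher genes and 15 of the 25 lower genes. Of the 16 higher IFNγ genes only 5 also reached the minimum at the control level, and *Isg15* and *Bst2* did not reach it. Most of the 18 thus entered through their ACD counts, and counts over the 18 only describe them.

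**Figure D2:**
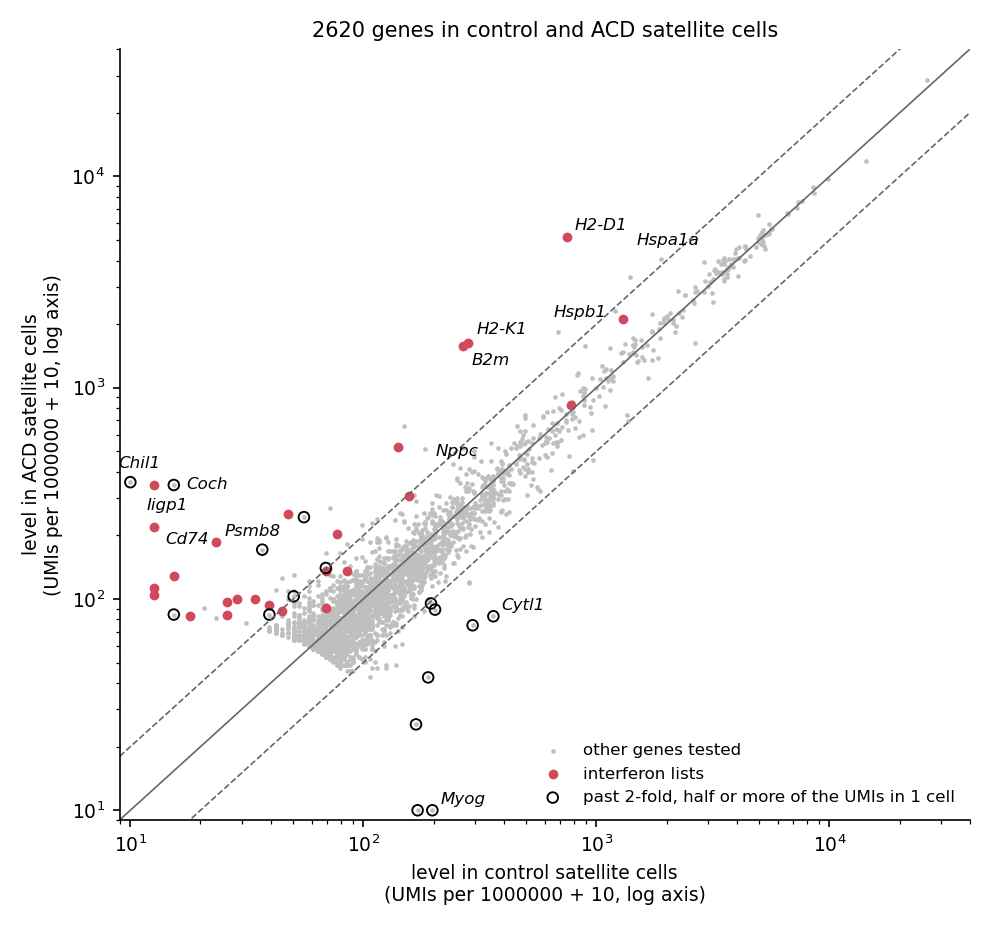
The level of each of 2620 genes in control (horizontal) and ACD (vertical) satellite cells, in UMIs per 1000000 with 10 added, on log axes, with dashed lines at 2-fold, red points for genes of the interferon lists and open rings for genes past 2-fold with 50% or more of their UMIs in 1 cell. The MHC class I genes *H2-D1*, *H2-K1* and *B2m* stand above the upper line, and 16 genes are ringed, 8 on each side.

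MHC class I presents peptides of the cell's own proteins to CD8+ T cells. Among the 18 higher interferon genes, its genes *H2-D1*, *B2m*, *H2-K1*, *H2-Q4* and *H2-T23* were found in the most ACD cells, whereas *H2-Q7* was found in 37. *H2-D1* (ENSMUSG00000073411; GRCm38, chromosome 17, 35262730 to 35267499), a classical class I heavy chain, had 274 UMIs in 71 of 81 control cells and 3338 UMIs in 120 of 120 ACD cells. Per cell, its median was 6.41 UMIs per 10000 in the control (range 0 to 23.4) and 46.0 in ACD (3.17 to 172), and the log2 ratio of the summed levels was 2.82 (2.64 to 3.0). *B2m* (ENSMUSG00000060802; chromosome 2, 122147686 to 122153083), the light chain shared by all class I molecules, had 96 UMIs in 45 control cells and 1010 UMIs in 115 ACD cells, with a log2 ratio of 2.60 (2.30 to 2.92). The other heavy chains with enough UMIs were higher as well, with log2 ratios of 2.58 for *H2-K1* (2.29 to 2.89), 2.69 for the non-classical *H2-T23* (1.90 to 3.59), 1.97 for *H2-Q4* (1.53 to 2.43) and 2.43 for *H2-Q7* (1.22 to 3.94). The class I genes are near-identical in places, so the split of reads between *H2-D1*, *H2-K1* and the *H2-Q* genes is uncertain.

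The difference in class I was spread over most ACD cells. Summed over 14 genes (heavy chains, *B2m*, the peptide transporter, its partner and the immunoproteasome), the control cells held from 0 to 56.9 UMIs per 10000 with a median of 17.4, and the ACD cells held from 11.5 to 274 with a median of 87.8. Of the 120 ACD cells, 86 lay above the highest control cell, and 0 of the 81 control cells lay above the ACD median. The middle 50% of the ACD cells still spanned 48.4 to 130, so the ACD cells also differed widely among themselves. The immunoproteasome subunits *Psmb8* (5 UMIs in the control, 113 in ACD; log2 3.71, 2.44 to 5.36) and *Psmb9* (7 and 58; 2.26, 1.13 to 3.64) and the proteasome activator *Psme1* (25 and 125; 1.53, 0.90 to 2.21), which cut peptides for class I, were each higher.

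**Figure D3:**
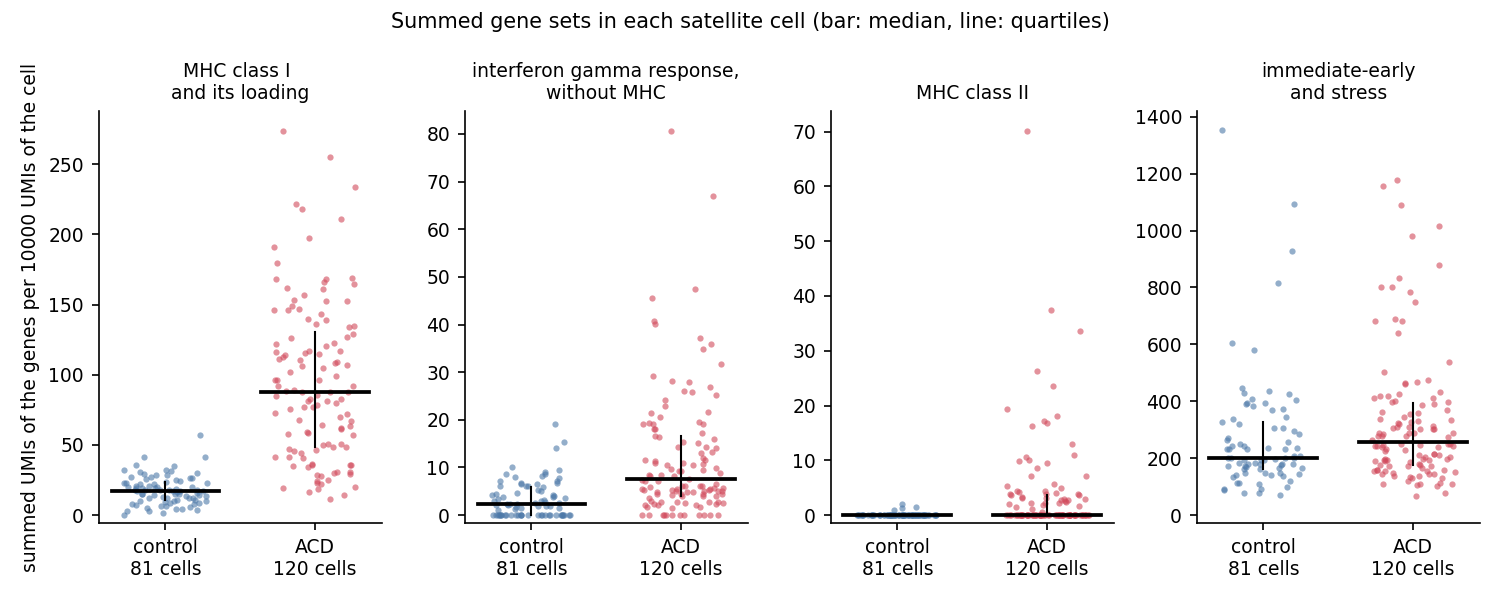
The summed UMIs of 4 gene sets per 10000 UMIs of each satellite cell, in 81 control and 120 ACD cells, with 1 point per cell, the median as a bar and the quartiles as a line. For MHC class I the ACD median (87.8) lies above every control cell, whereas for the immediate-early and stress genes the clouds overlap, with medians of 202 and 257.

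IFNγ-inducible GTPases, which attack intracellular microbes, were almost unseen in the control cells. *Iigp1*, an immunity-related GTPase, had 1 UMI in 1 control cell and 216 UMIs in 38 ACD cells, a log2 ratio of 6.96 with a wide counting interval of 4.47 to 12.27. *Gbp2*, a guanylate-binding protein, had 1 UMI in the control and 66 in 26 ACD cells, *Gbp7* had 3 and 47, and *Irgm1* had 6 and 48. The guanylate-binding protein genes resemble each other, so their single counts are uncertain as well. Over the 24 genes of the IFNγ list outside MHC, a UMI was found in 51 of 81 control cells and 108 of 120 ACD cells, with medians of 2.31 and 7.50 per 10000. Here 25 ACD cells lay above the highest control cell and 11 control cells above the ACD median, so the groups overlapped more than for MHC class I.

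MHC class II, which presents peptides from outside the cell and at rest is mainly a feature of professional antigen-presenting cells, was found in part of the ACD cells. *Cd74*, the invariant chain, had 1 UMI in the control and 135 UMIs in 27 ACD cells (22.5%, exact interval 15.4 to 31.0), *H2-Aa* had 1 and 61 UMIs (31 cells), and *H2-Ab1* had 2 and 76 UMIs (24 cells). Any of 4 class II genes was found in 4 control cells and 49 ACD cells. The UMIs were uneven among these cells. A single ACD cell held 40 of the 135 *Cd74* UMIs, and 1 held 21 of the 76 *H2-Ab1* UMIs. Over the 4 genes, 1 ACD cell held 44 UMIs and another held 40. The cell with 44 also held 164 UMIs of *Chil1*. At 2000 UMIs per cell the share with *Cd74* was 0% in the control and 16.0% in ACD. In the ACD library *Cd74* was found in 12.1% of the pericytes and 54.7% of the endothelial cells, at median depths of 9394 and 10143 UMIs against 4983.5 in the satellite cells.

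The class II counts were set beside signs of leukocyte RNA. The 49 ACD satellite cells with class II held 55.5 UMIs per 1000000 (31.7 to 90.1) of the immune marker genes other than *Cd74*. The 71 cells without class II held 56.0 (34.2 to 86.6). These levels rest on 16 and 20 UMIs. The marker genes include *Ptprc*, and the gate had already left out every cell with a UMI of it. In ACD, 10 cells met the gate on the muscle genes but held *Ptprc*. The comparison therefore cannot decide whether leukocyte RNA gave the class II counts. The cells with class II also had a higher MHC class I median, 110 against 68.1 UMIs per 10000, and were somewhat deeper, with medians of 5523 and 4831 UMIs. Without the cells that held markers of another type, the log2 ratio of *Cd74* was 3.01 in place of 4.11 (10 UMIs per 1000000 added). The part of free leukocyte RNA of the inflamed tissue was not tested.

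The stretches of promoter below are shown because they lie before genes that were at least 2-fold higher, at words that interferon-activated factors are known to bind. Sequences and start sites are from RefSeq on GRCm38.p6 and are written 5' to 3' on the gene's strand, with the matched words in capitals. The words searched on both strands in the 250 bases before each start were TTCNNNGAA, the gamma-activated site, and TTTC repeated after 2 bases of any kind, the core of the interferon-stimulated response element bound by IRF factors. *B2m* is shown at chr2:122147508-122147597 (plus strand), *H2-T23* at chr17:36032776-36032865 (minus), *Psmb8* at chr17:34198058-34198146 (plus), *Gbp2* at chr3:142620564-142620653 (plus) and *Gbp7* at chr3:142530190-142530332 (plus).
B2m: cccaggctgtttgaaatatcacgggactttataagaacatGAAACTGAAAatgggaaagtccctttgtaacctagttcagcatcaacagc
H2-T23: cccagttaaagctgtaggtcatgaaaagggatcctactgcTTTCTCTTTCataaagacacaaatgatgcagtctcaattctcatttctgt
Psmb8: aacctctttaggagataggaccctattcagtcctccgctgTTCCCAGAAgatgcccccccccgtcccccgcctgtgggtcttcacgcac
Gbp2: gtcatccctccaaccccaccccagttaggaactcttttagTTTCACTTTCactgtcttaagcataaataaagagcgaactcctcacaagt
Gbp7: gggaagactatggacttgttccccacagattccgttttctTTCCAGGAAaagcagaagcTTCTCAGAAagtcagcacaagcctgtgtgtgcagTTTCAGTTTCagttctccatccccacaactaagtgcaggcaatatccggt
*Gbp7* held both kinds of word, at 106, 87 and 53 bases before the start. Of the 18 higher interferon genes, 15 had a promoter entry, and 3 held the gamma-activated site (*Bst2*, *Gbp7* and *Psmb8*) and 7 the response element (*B2m*, *Bst2*, *Gbp2*, *Gbp7*, *H2-T23*, *Irgm1* and *Isg15*). Of the other higher genes, 19 had an entry, and 1 and 2 of them held the words. Of all 27025 genes of the table, 8.13% held the gamma-activated site and 3.46% the response element in at least 1 promoter. A match is a description of these letters and does not show a bound site, and no match says only that the letters are not in this window.

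The antiviral list of genes led by type I interferon was less well covered. Of its 30 names, 4 had enough UMIs, of which *Isg15* (9 and 58 UMIs; log2 1.90, 0.87 to 3.1) and *Bst2* (11 and 54; 1.5, 0.55 to 2.59) were past 2-fold, although *Bst2* was at 0.99 (10 UMIs per 1000000 added) without the 4 control and 2 ACD cells that held 50% or more of a gene's UMIs. *Ifitm3*, a membrane protein that blocks viral entry, had 483 and 1358 UMIs and a log2 ratio of 0.70 (0.55 to 0.85), and *Ifitm2* 286 and 530 UMIs and 0.10 (−0.11 to 0.31). *Oas1a*, *Oas2*, *Oas3* and *Mx1* had no UMI in either library.

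The receptor of IFNγ and the chemokines that it induces were also read. *Ifngr1*, the ligand-binding chain, had 48 UMIs in the control and 43 in ACD, a log2 ratio of −0.95 (−1.58 to −0.33) that did not pass 2-fold, and *Ifngr2* had 10 and 7 UMIs. *Cxcl10*, an attractant of CXCR3+ T cells, had 0 UMIs in the control and 15 UMIs in 6 ACD cells, at least 2.89-fold higher, and *Cxcl9* had 1 and 3. *Cxcl10* was thus found in 5.0% of the ACD satellite cells (exact interval 1.86 to 10.6), while in the same library it was found in 22.6% of the endothelial cells and 26.8% of the pericytes, which were about as deep as each other and deeper than the satellite cells. At 2000 UMIs per cell these shares were 4.2%, 10.4% and 17.9%.

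Set beside 3 other stromal classes, the interferon genes of the satellite cells had counterparts in each. Classes were gated among cells without *Ptprc*, with at least 2 UMIs and 2 genes of *Pecam1*, *Cdh5*, *Kdr* and *Emcn* (endothelial cells, 133 control and 106 ACD) or of *Rgs5*, *Kcnj8*, *Abcc9* and *Higd1b* (pericytes, 393 and 224), or with at least 2 *Pdgfra* UMIs and no *Acan* (fibroblasts, 2835 and 1432). Of the 18 interferon genes that were higher in satellite cells, 18 were also past 2-fold in endothelial cells and fibroblasts and 15 in pericytes. Of the other 30 higher genes, 2 were past 2-fold in endothelial cells, 2 in pericytes and 6 in fibroblasts, where 39, 42 and 47 of all 48 genes had enough UMIs. Over all genes with enough UMIs in a class, 144 of 5289 were at least 2-fold higher in endothelial cells. The same counts were 83 of 7391 in pericytes and 100 of 12218 in fibroblasts. Most of the 18 had reached the minimum in satellite cells only through ACD, so these counts are a description. For *H2-D1* the log2 ratio with 10 UMIs per 1000000 added was 2.80 in satellite cells and between 1.79 and 1.95 in these classes, and for *Bst2* it was 1.25 against 1.66 to 3.14. None of these differences between classes was tested, because each class has 1 library per condition.

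**Figure D4:**
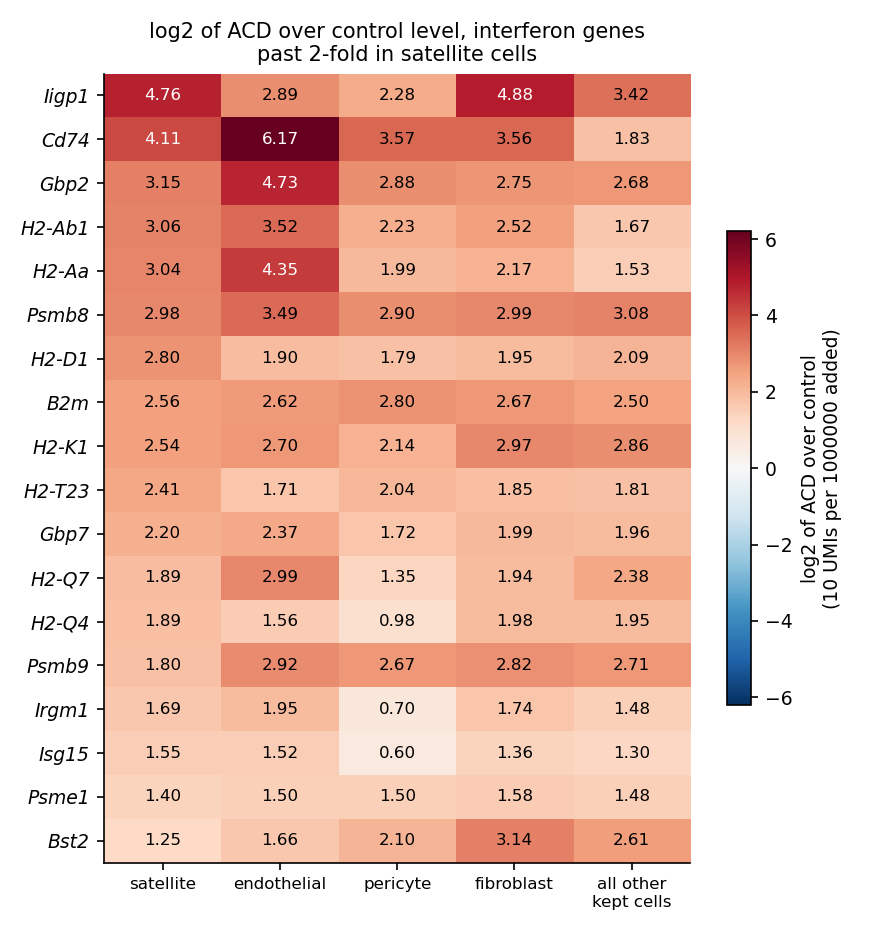
The log2 ratio of ACD over control (UMIs per 1000000, 10 added) for the 18 interferon genes past 2-fold in satellite cells, in satellite cells and in endothelial cells, pericytes, fibroblasts and all other kept cells of the same libraries. Every entry is above 0, and the lowest are *Isg15* (0.60) and *Irgm1* (0.70) in pericytes.

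Outside the interferon lists, *Nppc* (ENSMUSG00000026241; GRCm38, chromosome 1, 86666291 to 86670571) was among 8 of the 48 higher genes that were also at least 2-fold above the other cells in both libraries. Over all 2620 genes, 182 (6.95%) were above the other cells in this way. Of the 48 higher genes, 11 were at least 2-fold below the other cells in both libraries. *Nppc* encodes C-type natriuretic peptide, which signals through the receptor guanylate cyclase NPR-B. *Nppc* had 65 UMIs in 24 of 81 control cells (29.6%, exact interval 19.99 to 40.8) and 323 UMIs in 68 of 120 ACD cells (56.7%, 47.3 to 65.7). The log2 ratio of the levels was 1.52 (1.13 to 1.93), and 1.65 with 10 UMIs per 1000000 added when the top cell of each library was left out. At 2000 UMIs per cell the shares were 17.7% and 38.7%. *Nppc* was found in 0 endothelial cells and 0 pericytes of either library and in 1.20% and 1.54% of the fibroblasts, and all other kept cells together held 470 UMIs of it. Per cell the groups overlapped, with a median of 0 in the control (highest 29.8 UMIs per 10000) and 1.86 in ACD (highest 48.6).

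*Nppc* was higher in ACD in each subset of the gate. In cells with *Pax7* and no *Myod1* its level went from 181 to 561 UMIs per 1000000, in cells with both from 203 to 414, and in cells with *Myod1* and no *Pax7* from 123 to 337. In the cells with neither, 2 control UMIs stood against 57 in ACD. The MHC class I medians followed the same pattern in these subsets, from 19.1 to 107, from 13.9 to 91.7 and from 18.8 to 76.8 UMIs per 10000, and from 18.1 to 71.8 in the cells with neither. The subsets rest on a few UMIs per cell, and a cell without a *Myod1* UMI may still express the gene.

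Other genes outside the interferon lists were singled out after their values were seen. *Gal*, the neuropeptide galanin, had 23 UMIs in 14 control cells and 167 UMIs in 27 ACD cells, so most cells of both groups held none, and a single ACD cell held 40 of its UMIs. The imprinted genes *H19* (33 and 138 UMIs; log2 1.27, 0.72 to 1.87) and *Mest* (22 and 100; 1.39, 0.72 to 2.13) were past 2-fold, whereas *Igf2*, the neighbour of *H19*, had 108 and 158 UMIs and a log2 ratio of −0.24 (−0.60 to 0.12). *H2-T22*, a further non-classical class I gene outside the lists, had 13 and 75 UMIs, and *Ly6e*, an interferon-inducible surface protein, had 26 and 100 UMIs. *S100a10*, which forms a complex with annexin A2, had 357 UMIs in 71 control cells and 288 UMIs in 85 ACD cells, a log2 ratio of −1.10 (−1.33 to −0.87).

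The immediate-early and stress genes were high in both libraries. Of 23 such genes with enough UMIs, 2 were past 2-fold and 0 were lower, with a median log2 ratio of 0.18. The 2 were heat-shock genes, *Hspa1a* (the inducible HSP70; 704 and 2614 UMIs, log2 1.10, 0.98 to 1.22) and *Hspb1* (the small heat-shock protein HSP27; 251 and 1179 UMIs, 1.44, 1.24 to 1.64). Per cell, *Hspa1a* went from a median of 13.5 UMIs per 10000 (range 0 to 112) to 26.4 (0 to 236), and the groups overlapped widely. The ratio of *Hspa1a* lay close to 2-fold and was 0.85 with every cell thinned to 2000 UMIs (1.10 as reported, 10 UMIs per 1000000 added), and its reads cannot be told fully apart from those of the near-identical *Hspa1b*. *Fos* and *Jun*, the partners of the AP-1 factor, had log2 ratios of 0.27 (0.17 to 0.37) and 0.18 (0.08 to 0.29). Over the 26 genes, 28 of 81 control cells lay above the ACD median and no ACD cell lay above the highest control cell. These genes also answer to tissue digestion, whose part was not tested.

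Stem cell, Notch and differentiation genes gave few calls. Of 19 tested genes of the resting stem cell state, *Chrdl2*, a secreted BMP antagonist (12 and 65 UMIs; log2 1.65, 0.75 to 2.67), was at least 2-fold higher, and *Tenm4*, a teneurin (47 and 32; −1.35, −2.04 to −0.67; −0.83 with 10 UMIs per 1000000 added under the stricter cell filter), and *Cdkn1c*, the cell cycle inhibitor p57 (102 and 70; −1.33, −1.79 to −0.88), were at least 2-fold lower. A single control cell held 35 of the 102 *Cdkn1c* UMIs, and without the 2 control cells that held *Myog* its log2 ratio was −0.02 (10 UMIs per 1000000 added). The surface markers *Vcam1* (−0.40, −0.65 to −0.14) and *Sdc4* (−0.42, −0.56 to −0.27) and the muscle intermediate filament *Des* (−0.25, −0.52 to 0.02) were within 2-fold. *Sdc4* was below the other kept cells in the control (1831 against 2229 UMIs per 1000000) and in ACD (1372 against 1754). In those other cells its log2 ratio was −0.34 (10 UMIs per 1000000 added). *Calcr*, the calcitonin receptor of resting cells, had 3 UMIs in the control and 0 in ACD. No Notch gene of 11 was past 2-fold, with *Notch3* (105 and 219 UMIs) at 0.27 (−0.07 to 0.62) and the target *Hes1* (59 and 181) at 0.83 (0.40 to 1.28). Of 14 commitment genes, *Myog*, *Actc1* and *Mef2a* were lower and none was higher, while *Id3*, an inhibitor of the myogenic factors, had a log2 ratio of 0.36 (0.24 to 0.48).

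Few satellite cells held UMIs of the cell division genes *Mki67* and *Top2a*. *Mki67* was found in 0 of 81 control cells, which by the limit of 3 counts allows a share of cells with a *Mki67* UMI of up to 3.70% and sets no limit on cells that express it unseen, and in 2 of 120 ACD cells that held all 24 of its UMIs. *Top2a* had 1 UMI in the control and 23 UMIs in 2 ACD cells. Of 6 tested cell cycle genes, *Hmgb2*, a chromatin protein (39 and 147 UMIs; log2 1.12, 0.61 to 1.67), was past 2-fold, though not as a mean over cells (0.83), and its level in the satellite cells was below that of the other cells in both libraries.

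In the remaining lists, few or no genes passed 2-fold. Of 15 chemokine and NF-kB genes, *Cxcl2* and *Cxcl14* were higher, and 146 of the 151 ACD UMIs of *Cxcl14* came from 1 cell, while *Cxcl2* had 8 and 43 UMIs in 3 and 9 cells. *Cxcl1*, an attractant of neutrophils, had 331 UMIs in 49 control cells and 1009 UMIs in 79 ACD cells, a log2 ratio of 0.82 (0.64 to 1.0). None of the tested genes of the receptor (13), basement membrane (16), electrophile response (10), glycolysis (13), respiratory chain (27) and translation lists (23) was past 2-fold in either direction, and their medians lay between −0.20 and 0.08. The electrophile list was read because DNFB is a thiol-reactive chemical, and its metallothionein *Mt1* had a log2 ratio of −0.27 (−0.37 to −0.17).

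**Figure D5:**
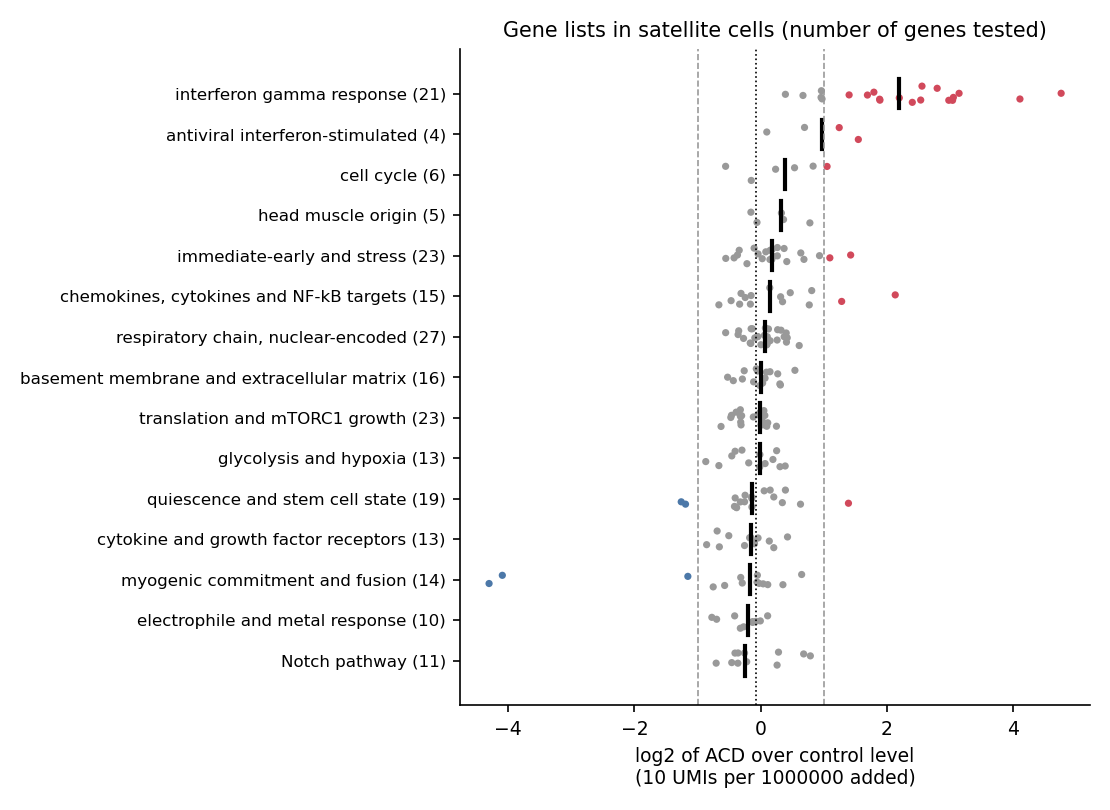
The log2 ratio of ACD over control in satellite cells (UMIs per 1000000, 10 added) for each tested gene of 15 gene lists, with the number of genes tested in brackets, list medians as bars, dashed lines at 2-fold and a dotted line at the median of all 2620 genes. The IFNγ list has a median of 2.20, with 12 of its 21 genes plotted only because of their ACD counts, and the other lists have medians between −0.25 and 0.97.

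Several of the largest differences came from 1 cell each. In ACD, 1 cell held 164 of the 224 UMIs of *Chil1* and 58 of the 84 of *Myoc*, another held 210 of the 217 UMIs of *Coch*, and 1 more held 146 of the 151 UMIs of *Cxcl14*. In the control, 1 cell held 103 of the 131 UMIs of *Cytl1* and 58 of the 67 of *Wif1*, which are cartilage genes. Such cells had UMIs of genes of other cell types together with the gate genes. Of the 12 lowest ratios, those not carried by 1 cell were *Ecm1* (48 and 25 UMIs; log2 −1.73, −2.49 to −1.01), *Gspt1* (43 and 24; −1.63, −2.42 to −0.88), *Rara* (43 and 25; −1.57, −2.35 to −0.83), *Atxn2l* (36 and 21; −1.57, −2.42 to −0.75), *Kdm5b* (39 and 24; −1.49, −2.29 to −0.72) and *Fxyd5* (51 and 33; −1.42, −2.10 to −0.76). *Gspt1* is a translation termination factor, *Rara* a retinoic acid receptor and *Kdm5b* a histone H3 demethylase. Each had 51 UMIs or fewer per library.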

How the data were processed

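Per the labels and the methods of the study, skin cells were captured with the Chromium 3' kit and sequenced on a NovaSeq, and the authors made UMI counts per gene and cell barcode with Cell Ranger on mm10 (version 3.1.0 per the submitters' processing notes, whereas the study's methods name another version). The deposited matrices hold these counts (12895 control and 13163 ACD barcodes). Barcodes were kept where the genes found numbered over 200 and under 5000, the UMIs did not exceed 25000 and the mitochondrial share stayed under 8%. The satellite cells held 372946 (control) and 645162 UMIs (ACD). No cells were clustered, and doublets were only left out in an alternative, where Scrublet called 4.77% and 3.53% of cells, 1 satellite cell in each library.

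Counts were summed over the satellite cells of a library and scaled to UMIs per 1000000. A gene was tested for size at 50 UMIs or more over both libraries and called past 2-fold with 10 UMIs per 1000000 added (counting intervals are without this addition). Intervals are exact (Poisson for levels, Clopper-Pearson for shares, conditional binomial for ratios, 95%) and cover counting error only. The 5 gate genes, 15 identity genes, 12 highest and 12 lowest ratios, the 4 genes with most UMIs and every called gene of each list, the 2 genes with most UMIs of each marker list and a fixed set of 13 genes were to be named, and genes named beyond these were chosen after their values were seen. A few genes of the rule are not reported here. The cells and the 26 lists were chosen with earlier results of these data known. Gene positions are from GENCODE on GRCm38 (27645 of 27998 identifiers found). Alternatives varied the filter, gate, doublets, scaling, weights, added UMIs, count minimum, top cells and depth, and 3 of them, leaving out cells with *Myog* or with 50% or more of a gene's UMIs and setting the minimum at the control level, were added after seeing the data. The summing and calling steps were tested on simulated data. Python 3.11.15, numpy 2.4.6, scipy 1.17.1, pandas 2.3.3, scanpy 1.11.5 (Scrublet) and matplotlib 3.10.9 were used.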

Additional observations from a re-analysis of the deposited data

How the results depend on the processing

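The log2 ratio of the satellite cell share was 0.63 and became 1.16 among cells without *Ptprc*. The 48 genes at least 2-fold higher became 116 with at least 20 UMIs, 265 with no minimum and 22 when every cell was thinned to 2000 UMIs, where fewer genes had enough UMIs. The 25 lower genes became 39 with all deposited barcodes, 81 without the limits on *Ptprc* and *Pdgfra*, 39 with 1 UMI per 1000000 added, 80 with at least 20 UMIs, 227 with no minimum and 13 when thinned. The 16 higher IFNγ genes became 26 with no minimum and 8 when thinned. With the minimum of 50 UMIs set at the control level, which drops genes that pass only through ACD and lets in genes that fell, the counts were 18 higher, 48 lower and 5 higher IFNγ genes. Under median-of-ratios scaling, which shifted all ratios by 0.09, the split of higher to lower genes was 61 to 18 in place of 48 to 25.

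Under these settings, 10 of 14 shares and 9 of 272 list medians moved. Of 1786 values of named genes, 155 moved and 2 changed sign. *Coch* went from 4.49 to −0.75 with all deposited barcodes and *1500015O10Rik* from 2.46 to −0.55 without the limits on *Ptprc* and *Pdgfra*, and each rests on 1 or a few cells. No paired analysis was possible because each condition has 1 library. With 81 and 120 cells, genes under 50 UMIs were not compared, and for genes near that minimum the counting interval is wide, as for *Msc* (log2 −0.91 to 0.81). *Hspa1a*, *Hmgb2*, *Tenm4* and *Bst2* lay close to 2-fold and crossed it under some settings, and the cause was not tested. Differences between cells of 1 library do not stand in for differences between mice.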
